A study of Homo sapiens with 118 samples.

Results

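The genes described here were 9 histone variants of the group called replication-independent, namely H1FX, H2AFJ, H2AFX, H2AFY, H2AFY2, H2AFZ, H2AFV, H3F3A and H3F3B. They were found by name in a table of counts per detector probe, as rows whose name without its trailing probe number equals 1 of these older symbols. Rows were present for 7 of the 9 symbols, with 8 rows among 22068 rows in all, since H2AFX had 2 probes. H2AFJ and H3F3A were not analysed here. The cells were HepaRG, an established human liver line used in its differentiated state, in which hepatocyte-like and biliary-like cells grow together. They were exposed for 72 hours, with daily renewal, to 1 of 8 histone deacetylase inhibitors at 5 concentrations, from C1 (lowest) to C5 (highest), and lysates were profiled by TempO-Seq, in which ligated pairs of detector probes are counted. There were 118 libraries in 40 groups, and the replicates of a group came from 3 batches of HepaRG cells (replicates 1, 2 and 3). The purpose of the series was to find transcripts that classify such inhibitors, and the comparisons below ask how the histone variant genes changed with concentration and whether the inhibitors differed.

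Concentrations of apicidin ran from 0.041722 to 0.86 µM, of mocetinostat from 0.177222 to 3.9 µM, of panobinostat from 0.001468 to 0.084 µM and of scriptaid from 4.94 to 94.5 µM. Those of tacedinaline ran from 1.143333 to 44 µM, of trichostatin A from 0.018811 to 1.5237 µM and of vorinostat from 0.404778 to 23.5 µM. Valproic acid is labelled 100.478 to 3038, with its unit open because the sources disagree. The groups panobinostat C3 and trichostatin A C4 lacked batch 3 and so had 2 libraries. Solvent-treated libraries were not used, each chemical was read against its own C1, and whatever had been reached by C1 is out of view. Apicidin is a cyclic tetrapeptide, mocetinostat and tacedinaline are benzamides, valproic acid is a short branched fatty acid, and the other inhibitors are hydroxamic acids. The labels also carry a letter taken as the plate, E for scriptaid, tacedinaline and vorinostat and H for the other chemicals. Differences between chemicals of unlike letter cannot be separated from it. Because the concentrations were not matched between chemicals, their values are set side by side and no compound is ranked against another.

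Most histone genes are transcribed only while DNA is copied, and their transcripts end in a stem-loop in place of a poly(A) tail. The replication-independent variants are mostly made throughout the cell cycle from ordinary polyadenylated transcripts, replace the standard histones at chosen places in chromatin, and so matter most in cells that no longer divide. H1FX encodes a linker histone, which sits where DNA enters and leaves the nucleosome. H2AFX encodes H2A.X, the form that is phosphorylated beside DNA breaks, and is mixed in this respect, since the gene also gives a stem-loop transcript in S phase. H2AFZ and H2AFV encode the nearly identical proteins of the H2A.Z family, placed near promoters and enhancers by the SRCAP and p400 remodelling complexes. H2AFY and H2AFY2 encode the macroH2A proteins, which carry a large globular macro domain, and H3F3A and H3F3B encode the same protein, H3.3.

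The table of counts holds no probe sequences. The 250 bases before the RefSeq transcription start are shown for the genes that moved furthest apart, the H2A.Z pair H2AFZ and H2AFV and the falling gene H2AFX, from 5′ to 3′ on the gene's strand (GRCh38.p14, minus strand in each case). Capitals mark CCAAT (the letters of the box bound by NF-Y), TATAAA (the TATA box) and GGGCGG (the GC box bound by Sp1), each read on both strands, and the marked motifs do not overlap. The gene is given with the window's position.
H2AFZ (H2AZ1), chr4:99950276-99950525: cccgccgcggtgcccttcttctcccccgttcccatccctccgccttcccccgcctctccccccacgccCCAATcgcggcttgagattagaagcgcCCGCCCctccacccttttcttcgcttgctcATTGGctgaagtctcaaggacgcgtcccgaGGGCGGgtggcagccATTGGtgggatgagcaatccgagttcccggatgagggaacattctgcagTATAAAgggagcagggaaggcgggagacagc
H2AFV (H2AZ2), chr7:44848088-44848337: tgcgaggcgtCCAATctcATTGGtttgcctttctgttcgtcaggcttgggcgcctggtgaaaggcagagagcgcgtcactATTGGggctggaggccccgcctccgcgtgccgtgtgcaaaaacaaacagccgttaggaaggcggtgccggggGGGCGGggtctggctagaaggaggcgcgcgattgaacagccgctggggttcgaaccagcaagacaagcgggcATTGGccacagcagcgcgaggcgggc
H2AFX (H2AX), chr11:119095466-119095715: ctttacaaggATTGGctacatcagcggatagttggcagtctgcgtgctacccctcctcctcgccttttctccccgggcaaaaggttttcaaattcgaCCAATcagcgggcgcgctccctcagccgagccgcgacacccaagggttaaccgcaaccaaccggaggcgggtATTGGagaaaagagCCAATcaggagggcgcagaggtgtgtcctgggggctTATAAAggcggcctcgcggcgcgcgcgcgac

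The H2AFZ window held 3 matches to CCAAT, 1 to TATAAA and 2 to GGGCGG. The H2AFV window held 4 matches to CCAAT, 1 to GGGCGG and 0 to TATAAA, and the H2AFX window held 4, 0 and 1. H2AFZ and H2AFX thus share a TATAAA match that the H2AFV window lacks, and among the other variants H1FX and H3F3B had 1 each. Over 35116 RefSeq promoter windows of the same length, 32.01% held CCAAT at least once and 9.531% at least 2 times, 10.72% held TATAAA and 42.64% held GGGCGG. The windows of all 9 genes were in the reference table, in 13 entries. These are matches of letters and say nothing of what binds there.

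Total counts per library ranged from 1061359 to 5250260, with a median of 3702007, and the mean total was lowest at vorinostat C5. Hepatocyte markers (ALB, APOA1, APOB and the like, 12 probes) summed to between 43057 and 64901 CPM (counts scaled to equal library size) in the C1 group means and to between 4008 and 44175 at C5. The biliary list ranged from 69.0 to 119 CPM at C1 and from 88.6 to 212 at C5. SOX9, SPP1 and the probe KRT19_10816 were at 0 in 0 of the 118 libraries, EPCAM in 113 and CFTR in 110. The probe KRT7_3703 was at 0 in 77 libraries, and KRT7_10561 was at 0 in 19 with a median of 1.13 CPM. The mesenchymal list lay between 93.9 and 130.4 CPM at C1 and between 49.6 and 81.3 at C5. The proliferation list (MKI67, TOP2A, CDK1 and others, 9 probes) lay between 714 and 1048 CPM at C1 and between 101 and 824 at C5. The label calls the cells liver progenitor cells. Hepatocyte markers were abundant (ALB had a median of 15139 CPM). Of the markers that biliary and progenitor cells share, SOX9 had a median of 29.3 CPM, KRT19_10816 of 37.4 and KRT19_3690 of 13.2. The EPCAM probe gave at most 2 counts. In lysates of mixed cells, fewer cells of a type and less RNA per cell cannot be told apart. Replicate 1 of apicidin C4 and replicate 1 of mocetinostat C3 correlated best with each other (r = 0.943). Their mean r with their own groups was 0.925 and 0.920. H2AFV was the lowest of its group in both (33.9 and 28.0 CPM), and they were left out only in the fits without batch 1. Of all libraries, replicate 3 of scriptaid C4 correlated least with its own group (mean r = 0.848, against a median of 0.957 over all libraries), followed by replicate 3 of mocetinostat C2 (0.890), and the lowest hepatocyte sum at C1, 14044 CPM, was in replicate 3 of trichostatin A. The H2AFV trend and the C5 change of H2AFX_2861 in scriptaid are given with and without the first of these, the H2AFV trend in trichostatin A with and without the last, and the trends called in mocetinostat with and without all 3 C2 libraries, since batches 1 and 2 were far from batch 3 there.

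The probes differed widely in signal, which depends on probe efficiency as well as on the transcript, so levels are not ranked between genes. Median counts per library were 1498.5 for H2AFX_2861, 1222.5 for H2AFY, 1022.5 for H2AFZ and 153.5 for H2AFV, and these 4 probes passed the filter on low counts in all 8 chemicals. H1FX had a median of 6.5 counts and was tested in 7 chemicals. The second H2AFX probe, H2AFX_26072, had a median of 5.5 counts and was tested in 5. The probe of H3F3B was at 0 in 65 libraries with at most 12 counts in any, and that of H2AFY2 was at 0 in 103 with at most 7, so neither was tested in any chemical, and a count of 0 leaves up to 3 counts per library possible. H3.3 transcripts are abundant in most human cells, and the near-absence of counts describes this probe.

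A probe was called when it changed at least 1.5-fold with an adjusted p under 0.05 in the quasi-likelihood test of edgeR, adjusted by Benjamini-Hochberg over every feature of that chemical. Each concentration was tested against C1, and so was the trend, a straight line on log2 concentration whose values below are the log2 change it gives between C1 and C5. By trend, 7 of 44 tested results rose and 3 fell, and at C5 there were 5 rises and 3 falls. In tacedinaline 2 of 5 probes tested rose by trend, where 21.8% of all features rose. The count was 2 of 6 in mocetinostat (background 17.9%), 1 of 5 in apicidin (17.2%), 1 of 4 in vorinostat (24.4%) and 1 of 6 in scriptaid (6.83%). Falls by trend numbered 2 of 4 in vorinostat, where 23.0% of all features fell, and 1 of 5 in apicidin (17.2%). With so few probes, no share is read as particular to the variants. The median trend of the tested variant probes was 0.60 in tacedinaline (5 probes) and 0.65 in mocetinostat (6 probes) on the log2 scale. Over all features it was 0.06 in both. The variant median was -0.35 in vorinostat (4 probes), likewise beside 0.06. No shift of the variants as a set is read from medians of so few probes.

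Trichostatin A gave 0 called probes of 6 in each comparison, with 1 at an unadjusted p under 0.05 at C3 and at C5 and 0 by DESeq2, in a chemical where 0.0616% of all features were called by trend. Panobinostat also gave 0 of 6, with 0 probes at an unadjusted p under 0.05 by trend and 1 at C5, and 0 by DESeq2, where 17.4% of features were called by trend and 16.2% at C5. Valproic acid gave 0 of 6 too, with 0 at an unadjusted p under 0.05 and 0 by DESeq2 in any comparison, where 14.9% of features were called by trend. Even so, its C5 libraries of H2AFY, H2AFZ and H2AFX_26072 all lay above those at C1. Lack of overlap between such small groups was not counted over all features, and here and below it is a description only. At C2 edgeR and DESeq2 called no variant probe in any chemical, and 1, in scriptaid, had an unadjusted p under 0.05. Few of all features were called there, namely 0.385% in tacedinaline, 0.191% in mocetinostat, 0.102% in apicidin and 0.0172% in vorinostat and 0.0% in each of the others. Calls at C3 were 1 of 6 in mocetinostat (11.6% of all features), 1 of 5 in tacedinaline (11.9%) and 1 of 4 in vorinostat (7.06%). Each of these C3 calls was lost in a fit without 1 batch, that of H2AFY in mocetinostat without any 1, that of H2AFX_2861 in vorinostat without batch 1 or 2 and that of H2AFV in tacedinaline without batch 2. The other chemicals had 0 at C3, against 15.3% in apicidin, 1.34% in scriptaid, 1.13% in valproic acid, 0.00763% in panobinostat and 0.0% in trichostatin A of all features. Among these, DESeq2 called 1 variant probe in apicidin, and unadjusted p-values under 0.05 numbered 1 in apicidin, 3 in scriptaid and 0 in panobinostat.

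At C4 the calls were 2 of 5 in tacedinaline (32.8%), 2 of 4 in vorinostat (32.3%), 1 of 5 in apicidin (22.3%) and 1 of 6 in mocetinostat (23.7%). They were 0 of 6 in the other chemicals, against 11.9% in valproic acid, 4.87% in scriptaid, 2.56% in panobinostat and 0.0% in trichostatin A of all features, and among these scriptaid had 2 at an unadjusted p under 0.05 and 1 by DESeq2, and the other three had 0 of either. At C5 the calls were 3 of 4 in vorinostat (47.5%), 2 of 6 in mocetinostat (30.5%), 1 of 5 in tacedinaline (38.8%), 1 of 6 in scriptaid (29.8%) and 1 of 5 in apicidin (28.8%). They were 0 of 6 in trichostatin A (0.0154%) and in valproic acid (11.1%). Calls of the variants thus lay at C3 and above.

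**Figure D1:**
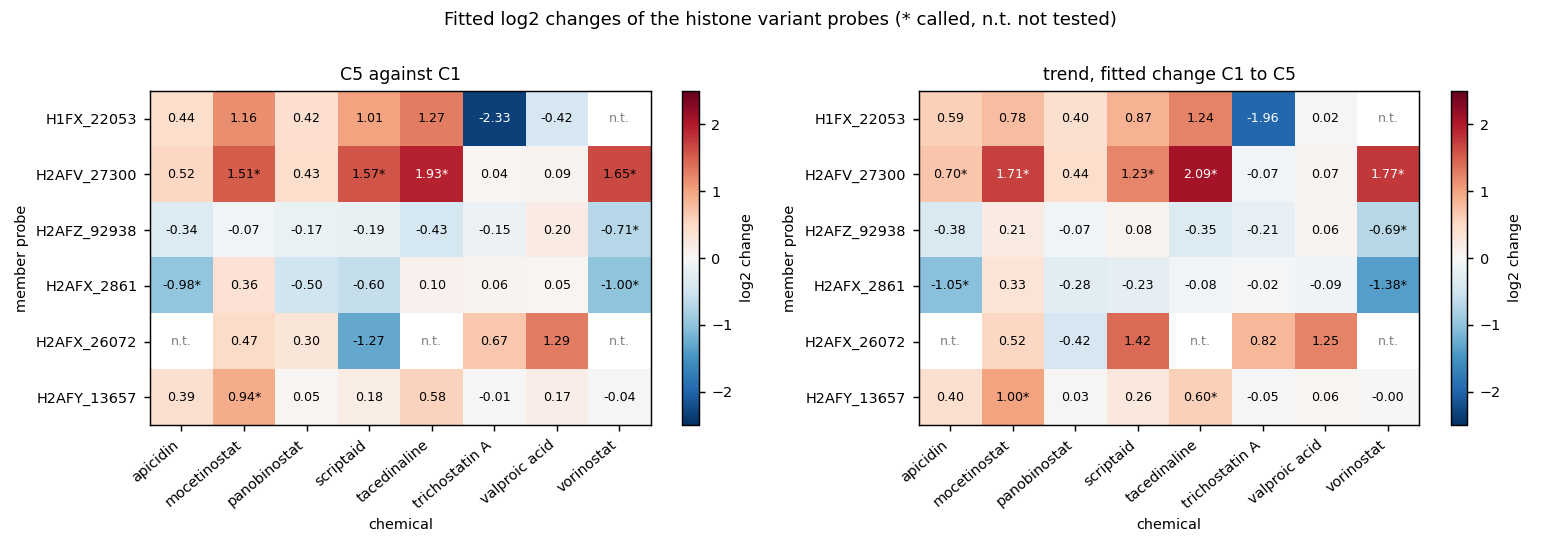
Fitted log2 changes of the 6 tested histone variant probes (rows) in the 8 chemicals (columns), for C5 against C1 (left) and for the trend (right). Red is higher and blue lower at high concentration, an asterisk marks a called change and n.t. a probe not tested. H2AFV and H2AFY carry the rises, and the falls lie in H2AFX_2861 and H2AFZ with apicidin and vorinostat.

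H1FX, which encodes the linker histone H1.10, was called in 1 comparison, tacedinaline C4, with 2.24 ± 0.88 (SE, adjusted p = 0.0408) from 10 counts in all at C1 and 57 at C4. The call was lost without any 1 batch, with 2.59 (adjusted p = 0.0863) without batch 1, 1.32 (0.386) without batch 2 and 3.34 (0.0578) without batch 3, and with no filter on low counts (2.19, adjusted p = 0.0584). Its trend ranged from -1.96 to 1.24 over 7 chemicals with no call, and 0 of these had an unadjusted p under 0.05.

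**Figure D2:**
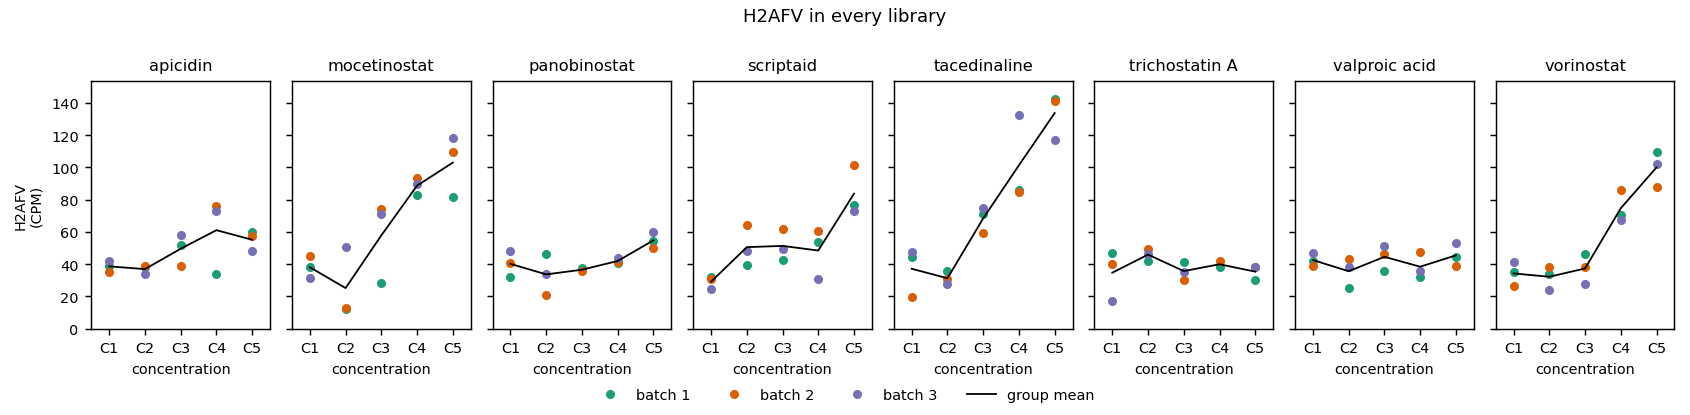
CPM of H2AFV at C1 to C5 in each chemical. Points are single libraries coloured by HepaRG batch and lines join group means. H2AFV climbs to 134 CPM on average at tacedinaline C5 and stays flat in trichostatin A and valproic acid.

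H2AFV, which encodes the H2A.Z.2 form of H2A.Z, rose by trend in 5 chemicals, apicidin, mocetinostat, scriptaid, tacedinaline and vorinostat. Trends lean on the top concentration, since of 10 called over all variant probes 5 remained without C5. Values below are CPM of batches 1, 2 and 3 in that order (batches 1 and 2 where a group had 2 libraries). In tacedinaline the libraries held 44.2, 19.5 and 47.7 CPM at C1, 35.8, 30.5 and 27.4 at C2, 71.1, 59.0 and 74.8 at C3, 86.1, 85.0 and 133 at C4 and 142, 141 and 117 at C5. Every library from C3 on exceeded every library at C1 and C2, and the trend was 2.09 ± 0.26 (SE, adjusted p = 2.89e-07). The C3 change was already 0.92 ± 0.24 (SE, adjusted p = 0.00657), or 0.67 (adjusted p = 0.145) without batch 2. In vorinostat H2AFV stood at 34.9, 26.4 and 41.4 CPM at C1, 33.9, 38.5 and 24.1 at C2, 46.2, 37.9 and 27.8 at C3, 70.6, 86.1 and 67.1 at C4 and 109.6, 88.0 and 102 at C5. The step came between C3 and C4, and the trend was 1.77 ± 0.26 (SE, adjusted p = 8.37e-06). In mocetinostat it stood at 38.1, 44.7 and 31.3 CPM at C1, 12.0, 12.7 and 50.7 at C2, 28.0, 74.1 and 71.2 at C3, 82.6, 93.6 and 89.7 at C4 and 81.3, 109 and 118 at C5. C2 was split, with batches 1 and 2 far below batch 3, and C4 and C5 were all above C1. Leaving out 1 batch ended no call by trend in tacedinaline or vorinostat, and that of mocetinostat was lost without batch 3 (1.61, adjusted p = 0.0912). With all batches the mocetinostat trend was 1.71 ± 0.44 (SE, adjusted p = 0.00504), or 1.39 (adjusted p = 0.00112) without the C2 libraries.

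In scriptaid H2AFV read 32.0, 30.8 and 24.4 CPM at C1, 39.3, 64.0 and 48.2 at C2, 42.6, 61.8 and 49.4 at C3, 53.5, 60.7 and 31.0 at C4 and 76.5, 102 and 73.0 at C5. All C5 values exceeded all C1 values, with a trend of 1.23 ± 0.30 (SE, adjusted p = 0.0109), or 1.30 (adjusted p = 0.00114) without replicate 3 of C4. In apicidin it read 38.7, 35.2 and 41.9 CPM at C1, 38.2, 38.6 and 33.8 at C2, 51.8, 38.6 and 58.1 at C3, 33.9, 76.1 and 73.1 at C4 and 60.0, 57.4 and 47.9 at C5. C5 lay just above C1, the trend of 0.70 ± 0.23 (SE, adjusted p = 0.0181) was called, and the C5 change of 0.52 ± 0.25 (SE, adjusted p = 0.126) was not. In panobinostat it read 31.9, 40.5 and 48.0 CPM at C1, 46.3, 20.5 and 34.0 at C2, 37.3 and 35.7 at C3, 40.5, 41.6 and 43.6 at C4 and 54.4, 50.0 and 59.7 at C5. C5 did not overlap C1, but neither the trend of 0.44 ± 0.22 (SE, adjusted p = 0.171) nor the C5 change was called. In valproic acid the values were 41.6, 38.8 and 47.1 CPM at C1, 25.4, 42.9 and 38.4 at C2, 35.8, 46.4 and 51.4 at C3, 32.1, 47.5 and 35.5 at C4 and 44.3, 38.8 and 53.1 at C5. The calls by trend in scriptaid and apicidin were lost without batch 2, that of scriptaid also without batch 1 and that of apicidin also without batch 3, with values from 0.58 to 1.26. In valproic acid the groups overlapped, with a trend of 0.07 ± 0.20 (SE, adjusted p = 0.861). In trichostatin A they were 46.9, 40.1 and 17.0 CPM at C1, 41.9, 49.2 and 46.4 at C2, 41.3, 30.2 and 35.4 at C3, 37.9 and 41.9 at C4 and 29.9, 37.9 and 38.1 at C5. Replicate 3 at C1 was the lowest, and the trend was -0.07 ± 0.26 (SE, adjusted p = 0.97), or -0.34 (adjusted p = 0.498) without it. The C5 change of H2AFV differed among the 8 chemicals (edgeR F test over all 118 libraries, adjusted p = 0.000151, where 30.3% of all features differed) and among the 7 without trichostatin A (0.0016, where 21.4% of all features differed). Without batch 2 neither was called, with adjusted p-values of 0.0836 and 0.207. Without replicate 3 of trichostatin A C1 they were 1.03e-05 and 0.000518.

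H2AFZ, which encodes the H2A.Z.1 form, was called as rising in no chemical. It fell by trend in vorinostat, where the libraries held 294, 296 and 391 CPM at C1, 297, 262 and 425 at C2, 245, 263 and 287 at C3, 261, 242 and 229 at C4 and 155, 206 and 196 at C5. All C5 values lay below all C1 values, with a trend of -0.69 ± 0.17 (SE, adjusted p = 0.00175) and a C5 change of -0.71 ± 0.17 (SE, adjusted p = 0.000562). Without batch 3 the trend was -0.48, under the fold threshold. In tacedinaline H2AFZ averaged 330.2 ± 68.8 CPM (SD, n = 3) at C1 and 235 ± 18.9 at C5, without overlap. The C5 change of -0.43 ± 0.14 (SE, adjusted p = 0.0101) passed the adjusted p and stayed under the fold threshold. The apicidin trend of -0.38 ± 0.15 (SE, adjusted p = 0.0457) did so too. In the other 5 chemicals the trend lay between -0.21 and 0.21 with no call. The C5 change of H2AFZ was not found to differ among the 8 chemicals (adjusted p = 0.164).

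The H2A.Z genes were then set against each other in the same library, as log2(H2AFV / H2AFZ), which does not depend on library scaling apart from the pseudocount of 0.5 CPM. Since the probes differ in efficiency, only the change of this ratio is read. C4 and C5 were compared with C1 and C2 by an exact two-sided permutation test over libraries. Each side pooled neighbouring concentrations of the same batches, so its SD mixes batch and concentration. In tacedinaline the log2 ratio was -2.79, -3.79 and -3.08 in the libraries at C1 and -0.58, -0.79 and -1.07 at C5. Its mean rose by 2.14 between the lower and upper concentrations, from -3.32 ± 0.37 to -1.17 ± 0.48 (SD, n = 6 each). In vorinostat it was -3.06, -3.46 and -3.22 at C1 and -0.50, -1.23 and -0.94 at C5, with a rise of 1.99. The rise was 1.46 in mocetinostat and 0.94 in apicidin. In each of these 4 chemicals the 6 upper libraries lay above the 6 lower ones, with an exact p = 0.00216, the smallest that 6 against 6 allows (adjusted over 8 tests, 0.00433). Without the C2 libraries the mocetinostat rise was 1.27 (exact test, adjusted p = 0.0238).

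The difference was 0.42 in panobinostat (exact permutation p = 0.0411, adjusted 0.0658) and 0.79 in scriptaid (exact p = 0.0823, adjusted 0.11). In scriptaid the values at C4 were -2.53, -2.42 and -3.31, the last being the library that stood apart. Without that library the rise was 1.04 (exact test, adjusted p = 0.0242). At C5 the scriptaid values were -1.29, -0.94 and -1.69, above every scriptaid library at C1 to C4. Panobinostat C5 held -2.42, -2.41 and -2.49, also above all its libraries at C1 to C4. In valproic acid and trichostatin A the C5 libraries overlapped the lower concentrations. The ratio at C5 alone was not tested. Valproic acid (0.08) and trichostatin A (0.14) had adjusted exact p-values of 0.72 and 0.771. Without replicate 3 of trichostatin A C1 the latter was -0.11.

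**Figure D3:**
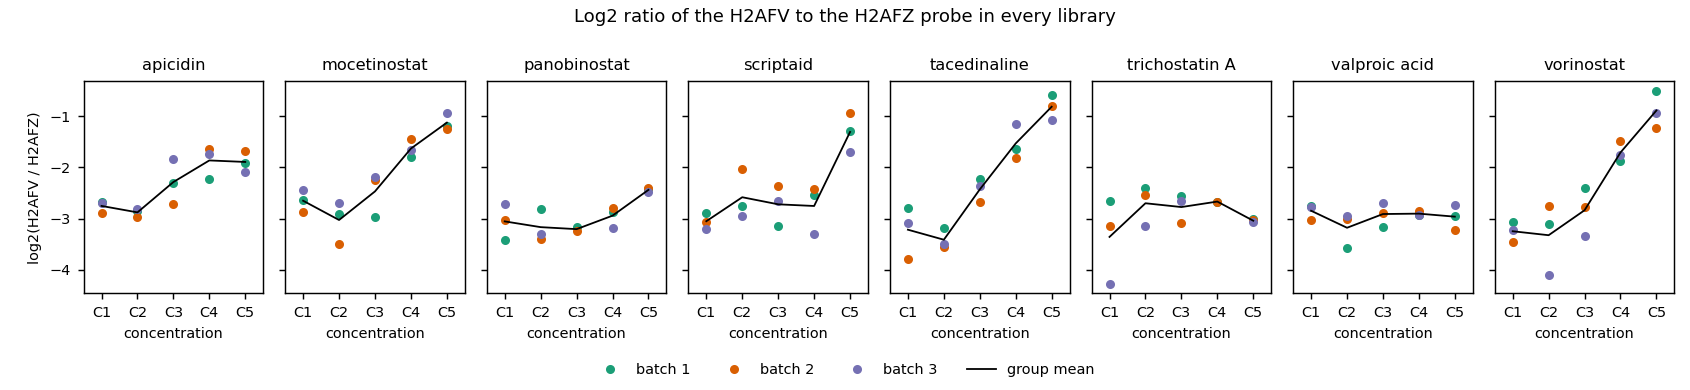
Log2 ratio of the H2AFV to the H2AFZ probe at C1 to C5 in each chemical, with 1 point per library coloured by HepaRG batch and lines through group means. All values are below 0 because the H2AFZ probe gave more counts. The ratio climbs with concentration in apicidin, mocetinostat, tacedinaline and vorinostat, where upper and lower libraries do not overlap. In scriptaid and panobinostat they overlap, while the C5 libraries are the highest.

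H2AFX_2861, the well-counted probe of the DNA damage histone H2A.X, fell in apicidin and vorinostat. In apicidin the libraries held 431, 510.1 and 480.1 CPM at C1, 441, 485 and 450.5 at C2, 325.7, 287 and 339.6 at C3, 256, 261 and 308 at C4 and 239, 230.5 and 248 at C5. Every library from C3 on lay below every library at C1 and C2, and the trend was -1.05 ± 0.13 (SE, adjusted p = 1.17e-06). In vorinostat they held 372, 452 and 505 CPM at C1, 414, 367 and 614 at C2, 262, 208 and 351 at C3, 162, 157 and 169 at C4 and 158, 185 and 274 at C5. The lowest mean, 163 CPM, was at C4 with a change of -1.40 ± 0.19 (SE, adjusted p = 4.87e-07), and the trend was -1.38 ± 0.25 (SE, adjusted p = 8.48e-05). In scriptaid the values were 322, 380.1 and 321 CPM at C1, 199.8, 312 and 660.3 at C4 and 218, 221 and 213 at C5. C5 did not overlap C1, and the library of C4 that stood apart was the highest. The scriptaid C5 change was -0.60 ± 0.32 (SE, adjusted p = 0.165) with all libraries and -0.62 (adjusted p = 0.00434) without that one. In panobinostat the C5 change was -0.50 ± 0.18 (SE, adjusted p = 0.0645), with C1 and C5 overlapping, and it passed the threshold without batch 3 (-0.77, adjusted p = 0.0467).

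In the other 4 chemicals the C5 change of H2AFX_2861 lay between 0.05 and 0.36, with no call. Tacedinaline, in which H2AFV rose, had H2AFX_2861 at 394, 367 and 442 CPM at C1 and 400.3, 440.4 and 397 at C5. The C5 change differed among the 8 chemicals (adjusted p = 7.92e-05) and among 7 (0.000178), where without batch 2 the values were 0.0327 and 0.0585. The weak probe H2AFX_26072 was not tested in apicidin, tacedinaline or vorinostat, and in the 5 chemicals tested its trend ranged from -0.42 to 1.42 with no call and with 0 at an unadjusted p under 0.05. The second probe was called in scriptaid when C5 was left out of the trend (2.41, adjusted p = 0.0419), as a rise. It held 8 counts in all at C1, 34 at C4 and 2 at C5. Its higher counts at C3 and C4 carried it past the filter on low counts, so no change is read from this call. The falls rest on the first probe alone.

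The proliferation markers were set beside H2AFX_2861, which fell in apicidin and vorinostat. Their summed CPM went from 819 at C1 to 148 at C5 in apicidin, from 909 to 101 in vorinostat, from 714 to 185 in scriptaid and from 1048 to 417 in panobinostat. They went from 800.0 to 488 in mocetinostat, from 797 to 543 in tacedinaline, from 867 to 533 in valproic acid and from 789 to 824 in trichostatin A. The trichostatin A libraries held 968, 927 and 472 CPM at C1 and from 771 to 921 at C5. The 472 was in replicate 3, the library with the low hepatocyte sum, so no rise is read there. It was kept in the correlations below. By trend, 6 of 7 tested proliferation probes fell in apicidin, where 17.2% of all features fell, and 6 of 7 in vorinostat (23.0%). The count was 6 of 9 in panobinostat (9.35%), 5 of 8 in valproic acid (7.73%), 3 of 7 in tacedinaline (21.5%), 3 of 9 in mocetinostat (17.7%), 1 of 9 in scriptaid (6.18%) and 0 of 9 in trichostatin A (0.0462%). At scriptaid C5, 6 of 9 proliferation probes fell and 0 rose, where 29.8% of all features were called in either direction. Hepatocyte probes fell in 10 to 12 of 12 cases in every chemical but trichostatin A, where 0 of 12 were called. Over the 40 group means, centred within chemical, Pearson's r with the log2 proliferation sum was 0.85 for H2AFX_2861, 0.65 for H2AFZ, -0.18 for H2AFY and -0.57 for H2AFV. With the hepatocyte sum r was -0.88 for H2AFV, -0.65 for H2AFY, 0.41 for H2AFZ and 0.47 for H2AFX_2861. These are descriptions over groups that share concentration, libraries and scaling, and the part of cell number, cell type or cell division in the changes was not tested.

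**Figure D4:**
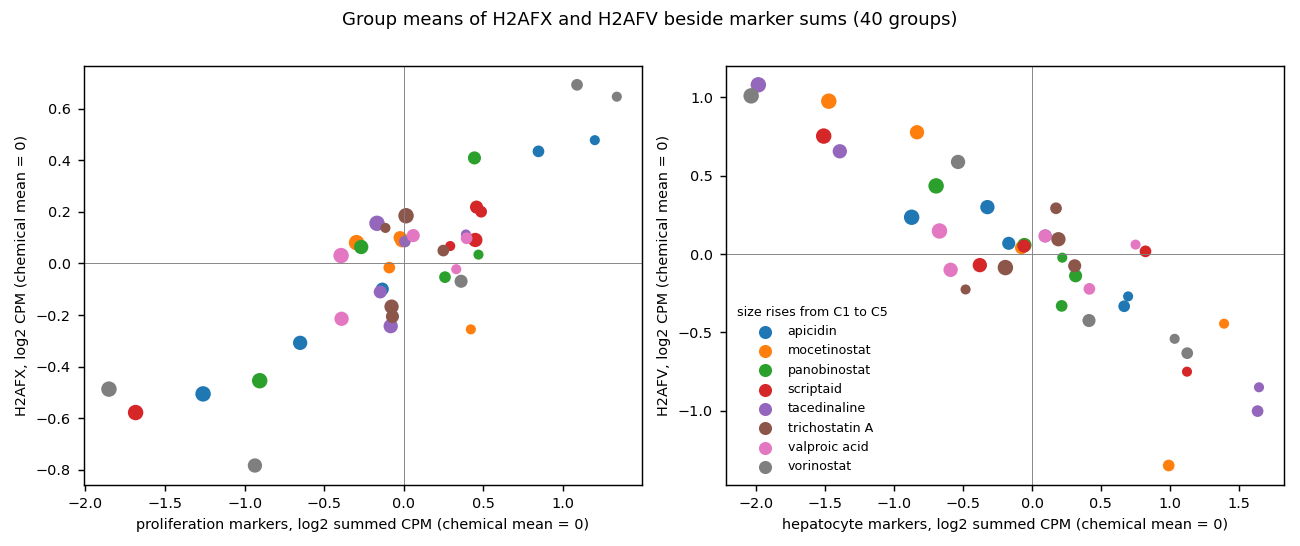
Group means of H2AFX_2861 against the summed proliferation markers (left) and of H2AFV against the summed hepatocyte markers (right), on the log2 scale with each chemical's mean set to 0. Each point is 1 of 40 groups, coloured by chemical and larger at higher concentration. H2AFX is lower where proliferation markers are lower (r = 0.85), and H2AFV is higher where hepatocyte markers are lower (r = -0.88).

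H2AFY, the macroH2A1 gene, rose by trend in mocetinostat and tacedinaline, the benzamides of the set. In mocetinostat the libraries held 246, 348 and 293 CPM at C1, 313, 346 and 421 at C2, 407, 443 and 499.9 at C3, 559, 556 and 589 at C4 and 479, 567 and 567 at C5. From C3 on every library exceeded every library at C1, and the trend was 1.00 ± 0.17 (SE, adjusted p = 0.000172), or 0.94 (adjusted p = 0.000273) without the C2 libraries. In tacedinaline they held 287, 321 and 349 CPM at C1, 320.1, 334 and 363 at C2, 379, 299 and 426 at C3, 442, 412 and 480.4 at C4 and 439.8, 499 and 443 at C5. C4 and C5 lay above C1, and the trend of 0.60 ± 0.13 (SE, adjusted p = 0.000345) was just over the fold threshold, which it missed with DESeq2 (0.57) and without batch 1 (0.54). In apicidin the C1 libraries held 301, 323 and 379 CPM and those at C5 416, 475 and 419. They did not overlap, and the trend of 0.40 ± 0.13 (SE, adjusted p = 0.0144) stayed under the fold threshold. In the other 5 chemicals the H2AFY trend lay between -0.05 and 0.26. The C5 change differed among the 8 chemicals (adjusted p = 0.000922) and among 7 (0.00198). These calls were lost without batch 1 (0.133 and 0.189) and without batch 2 (0.159 and 0.278). Benzamides as a class were not tested against the rest, and concentrations differed.

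**Figure D5:**
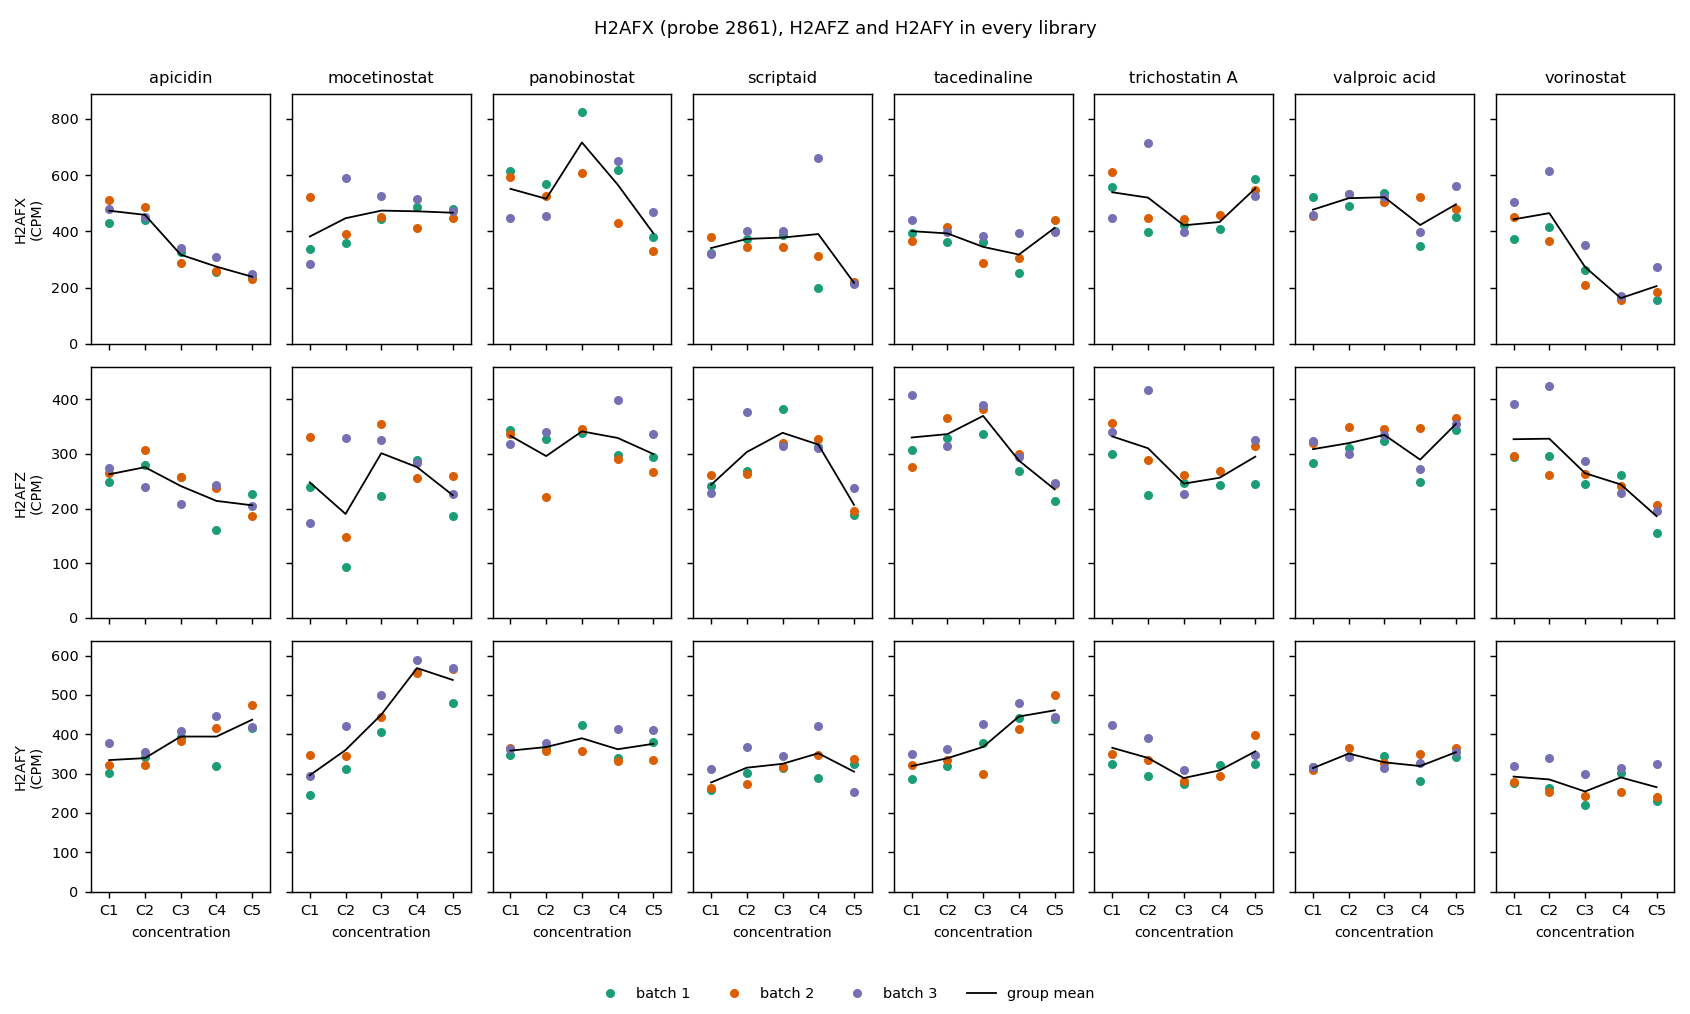
CPM of H2AFX_2861 (top), H2AFZ (middle) and H2AFY (bottom) at C1 to C5 in each chemical, with 1 point per library coloured by HepaRG batch and lines through group means. H2AFX is lower from C3 on in apicidin and vorinostat, H2AFZ is lowest at vorinostat C5, and H2AFY climbs in mocetinostat and tacedinaline.

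Across the same 40 centred group means, Pearson's r was 0.61 between H2AFY and H2AFV and 0.63 between H2AFX_2861 and H2AFZ. It was -0.44 between H2AFX_2861 and H2AFV, -0.26 between the H2A.Z genes, 0.13 between H2AFY and H2AFZ and 0.06 between H2AFX_2861 and H2AFY. The features most like H2AFV by this measure, among 11287, were PRDX1 (r = 0.945), TRMT1L (0.936), SYAP1 (0.935), CRIPT (0.934) and TFPI2 (0.931). PRDX1 encodes a peroxidase that removes hydrogen peroxide, and TFPI2 an inhibitor of serine proteases. TFPI2 was called as rising by trend in 7 chemicals, PRDX1 in 6, SYAP1 in 5, CRIPT in 4 and TRMT1L in 3. These features were picked for their likeness to H2AFV over the same groups, so their rises are a description and no separate support.

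The machinery that places these variants was read from a list of 30 genes for chaperones and remodelling subunits, all with a row (38 probes). By trend, 7 of 36 tested probes rose in tacedinaline, where 21.8% of all features rose, 9 of 37 in vorinostat (24.4%) and 7 of 38 in mocetinostat (17.9%). Of 38 tested in each of the others, 0 rose with trichostatin A (0.0154%), 0 with valproic acid (7.16%), 2 with scriptaid (6.83%), 1 with panobinostat (8.06%) and 5 with apicidin (17.2%). Falls numbered 6 in vorinostat, 5 in apicidin, 2 in mocetinostat and panobinostat, 1 in tacedinaline and valproic acid and 0 in the others, beside the shares of falling features given above. In tacedinaline, vorinostat and mocetinostat the rises were thus near the background, and no change is read for the list. The median trend of the list was 0.24 in apicidin and -0.21 in vorinostat, its extremes, where the medians over all features were 0.03 and 0.06. RUVBL1 and RUVBL2, the paired ATPases shared by the SRCAP, p400 and INO80 complexes, were each called as rising in 5 chemicals, with median trends of 1.10 and 1.42. UBN1, a subunit of the HIRA complex that places H3.3, had 3 probes, called as rising in 5, 4 and 3 chemicals with medians of 1.34, 0.98 and 0.80. ACTL6A, an actin-like subunit of several remodellers, was called as rising in 3 (median 0.57). Chosen after the values were seen, HIRA and DAXX, the H3.3 chaperones, were called in no chemical, with medians of 0.03 and 0.01, and 1 of the SRCAP probes, the H2A.Z remodeller itself, was called as falling in 3 (median -0.48).

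For comparison, the replication-dependent histone genes had 59 probes for 58 symbols. In apicidin 28 of 43 tested fell by trend and 2 rose, with a median of -1.15, where 17.2% of all features fell. In vorinostat 22 of 39 fell and 3 rose, with a median of -1.25, where 23.0% of all features fell. Falls numbered 8 of 42 in tacedinaline (21.5%), 7 of 44 in mocetinostat (17.7%), 5 of 41 in panobinostat (9.35%), 2 of 43 in valproic acid (7.73%), 0 of 42 in scriptaid (6.18%) and 0 of 43 in trichostatin A (0.0462%). Rises numbered 7, 6, 2, 1, 2 and 0 in these 6 chemicals in the same order. H2AFX_2861 fell by trend in apicidin and vorinostat and was called in none of these 6 with all libraries. At scriptaid C5, 14 of 42 replication-dependent probes fell and 3 rose, with a median of -0.58. There 29.8% of all features were called in either direction. Other variants, such as CENPA and the H2A.B genes, had 8 probes for 8 of 10 symbols. At most 2 of these were tested in any chemical, and 1 was called, H3F3C in panobinostat as falling, which was looked up after its values were seen.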

How the data were processed

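Gene expression was measured in 118 HepaRG lysates by TempO-Seq. Per the submitters' processing notes, reads were handled with bcl2fastq 2.20.422, fastp 0.23.2, STAR 2.7.10b and DESeq2 1.38.0, whose roles and whose genome build are not given in the sources used here. The authors deposited raw counts, 1 value per detector probe and library, with no normalization. Of 22069 rows, 1 lacked values in 88 libraries and was left out. Total counts were 1061359 to 5250260 per library, and counting error limits the weak probes most.

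Features were kept by filterByExpr (minimum count 10) and scaled by TMM within each chemical, and edgeR 4.0.16 (R 4.3.3) fitted quasi-likelihood models of concentration group, or of log2 concentration for the trend. P-values were adjusted by Benjamini-Hochberg over all features of a chemical. CPM values shown are TMM-scaled over all libraries. The difference in the C5 change among chemicals was a single F test over all libraries. The ratio of H2AFV to H2AFZ used log2(CPM + 0.5) and an exact permutation test. Members called by trend in 1 direction in at least 4 chemicals (H2AFV) are given with every library value, and the others with the values that bear on a call. Of the deposition probes the 6 called by trend in most chemicals in 1 direction are named, and the 5 features closest to H2AFV by Pearson's r. The code was tested on simulated counts with known changes. Python 3.11.15, NumPy 2.4.6 and pandas 2.3.3 made the summaries.

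Groups and batches came from the labels, which give the same 3 HepaRG batches for all groups, except that panobinostat C3 and trichostatin A C4 lacked batch 3. The plate letter was the same throughout a chemical and was not modelled. Deviations from group means of same-batch libraries had a median correlation of 0.0240 over 232 pairs, against -0.0109 over 464 pairs of different batches. Nothing else says how separate the cultures were. P-values of a concentration against C1 thus measure the spread between single libraries of these batches. Those of the trend also take in departures from the straight line. The permutation test of the ratio treats libraries of the same batch at neighbouring concentrations as separate. Alternatives were DESeq2 1.42.0, RLE scaling, no filter, no fold threshold, batch as a block, other pseudocounts and leaving out batches. The members and lists were chosen with earlier results of these data known. A further variant gene is not reported here. Solvent controls were not used here. The promoter sequences are from RefSeq.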

Additional observations from a re-analysis of the deposited data

Results flagged for a closer look

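The C5 change relative to C1 differed among the chemicals for 3 of the 6 variant probes tested, by edgeR's F test over all libraries. Of all features 30.3% differed among 8 chemicals and 21.4% among 7. Among 8 chemicals the adjusted p was 7.92e-05 for H2AFX_2861, with log2 changes from -1.002 in vorinostat to 0.36 in mocetinostat. It was 0.000151 for H2AFV, from 0.04 in trichostatin A to 1.93 in tacedinaline, and 0.000922 for H2AFY, from -0.04 in vorinostat to 0.94 in mocetinostat. Among the 7 chemicals without trichostatin A it was 0.000178 for H2AFX_2861, 0.0016 for H2AFV and 0.00198 for H2AFY. Without replicate 2, H2AFV and H2AFY were not called among 8 chemicals, and none of the 3 was among 7. In that fit 15.2% of all features differed among 8 chemicals and 7.74% among 7. H2AFY was also not called without replicate 1, where these shares were 17.8% and 10.6%. The top concentrations were not matched, so these values compare the concentrations used and not the compounds at equal exposure. The chemicals also differed in the plate letter of their labels, which cannot be separated from these differences. No group held the 4 samples that a search for outlying samples needs.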

How the results depend on the processing

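Of 18 called results at C5 and by trend, 17 were called by DESeq2, by RLE scaling and with no filter on low counts. The H2AFY trend in tacedinaline fell just under the fold threshold in each of these, which left 1 probe by trend in tacedinaline. With the HepaRG batch as a replicate block all 18 were called, and the H2AFY C5 change in tacedinaline (0.59) was added, for 2 probes there. None of the called results changed direction under any alternative run. Without replicate 1, 2 or 3 the called results numbered 16, 15 and 15, and of 10 called trends 5 remained when C5 was left out. Without the fold threshold the count of variant probes became 2 at C5 in apicidin, 3 at C5 in tacedinaline and 4 by trend in apicidin. The calls over C2 to C4 in apicidin became 2, and those at C4 in tacedinaline became 3. Over C2 to C4, where a probe counts once for each concentration at which it was called, RLE scaling gave 2 calls in apicidin and 1 in mocetinostat, and DESeq2 gave 3 in apicidin and 1 in scriptaid, against 1, 2 and 0 in the main analysis of apicidin, mocetinostat and scriptaid. The trend without C5 gave 1 in apicidin, in mocetinostat and in tacedinaline. Without replicate 3 of scriptaid C4, chosen after seeing the data as were the trend without C5 and the fits without mocetinostat C2, scriptaid gave 2 at C5, 2 over C2 to C4 and a ratio change of 1.04. Leaving out 1 replicate gave 1 to 2 probes at C5 in mocetinostat, in scriptaid and in tacedinaline, and 0 to 1 in panobinostat. Over C2 to C4 it gave 1 to 3 calls in apicidin and in mocetinostat and 1 to 2 in tacedinaline, against 3 in the main analysis of tacedinaline, and by trend it gave 1 to 2 in apicidin, in mocetinostat and in tacedinaline, and 0 to 1 in scriptaid. The probes differing among 8 chemicals then numbered 1 to 3, with 1 without replicate 2 (15.2% of all features). Among 7 chemicals they numbered 0 to 3, with 0 without replicate 2 (7.74% of all features). The ratio of H2AFV to H2AFZ rose by 0.77 to 1.06 in apicidin, 1.27 to 1.56 in mocetinostat, 2.03 to 2.28 in tacedinaline and 1.82 to 2.11 in vorinostat without 1 replicate, where the smallest adjusted p that 4 against 4 libraries gave was 0.0571. The cause of these differences was not tested, beyond the fewer samples of a fit without 1 replicate. The planned ratios of H3F3B to H3F3A and of H2AFY2 to H2AFY were not run, since H3F3A was not analysed and both H3F3B and H2AFY2 were at or near 0, and using the most abundant probe in the ratio changed nothing because each gene had 1 probe. Depth limits H1FX and H2AFX_26072, with medians of 6.5 and 5.5 counts.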
